A study of Mus musculus with 2 samples.

Results

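Replication-dependent histone genes supply the protein on which newly copied DNA is packed. Core histones H2A, H2B, H3 and H4 build the nucleosome, and linker histone H1 binds the DNA between nucleosomes. Their mRNAs are made mainly while DNA is copied in S phase. Most of them end in a short hairpin, the histone stem-loop, in place of a poly(A) tail, and the stem-loop is bound by the protein Slbp. Droplet kits of the 3' type used here prime reverse transcription on poly(A), so the captured counts describe the RNA that such a kit reaches.

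All genes of the deposited annotation whose symbol starts with Hist1h, Hist2h, Hist3h or Hist4h were taken, which gave 67 of 31053 genes. They comprised 6 H1, 18 H2A, 18 H2B, 12 H3 and 13 H4 genes. The data come from the genital tubercle, the outgrowth that forms the penis or clitoris, of wild type C57BL/6 mouse embryos at embryonic day 14.5 (TS22). The study made 1 male and 1 female single-cell library, each from a pool of 3 embryos drawn from 2 litters, so embryos cannot be told apart and no test between the sexes is possible. Unless named otherwise, a level is given in UMIs (counted molecules) of a gene per 1000000 UMIs (CPM) summed over the kept barcodes, and intervals are exact 95% intervals for counts or shares that cover counting error only.

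Kept were 17254 male and 18711 female barcodes that had 2000 or more UMIs and 500 or more genes and no more than 10% of UMIs from mitochondrial genes. They held a median of 5169.5 UMIs and 2105 genes in the male library and 5242 UMIs and 2162 genes in the female library. Both libraries shared 82 barcode sequences. Ddx3y, on the Y chromosome, had 61.3 CPM in male barcodes and none in female ones, as the labels state the sexes. Mesenchyme-like barcodes made up 94.3% of the male and 96.0% of the female library.

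Of the 67 genes, 54 lie on chromosome 13 between positions 21715763 and 23934851 (mm10, GENCODE M21), a span of 2219089 bases. A further 10 lie on chromosome 3, 2 on chromosome 11 (Hist3h2a and Hist3h2ba) and 1 on chromosome 6 (Hist4h4). In the annotated transcripts a 16-base stem-loop was found after the stop codon of 46 of the 67 genes, starting 22 to 59 bases after the stop (median 32). It occurred in 8 different sequences, of which the most frequent was carried by 26 genes. Of the 21 genes without a match, 15 have an annotated 3' untranslated region shorter than 22 bases, so that a stem-loop could not be seen in these transcripts. The stem-loops of 7 of the 12 most captured genes are shown because they differ in sequence or in how far the annotated transcript runs on behind them. Capitals mark the stem-loop and lower case the flanking transcript.
Hist1h2ae: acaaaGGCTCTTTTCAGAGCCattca
Hist1h2ap: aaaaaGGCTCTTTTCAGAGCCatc
Hist1h4i: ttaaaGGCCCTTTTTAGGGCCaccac
Hist1h4d: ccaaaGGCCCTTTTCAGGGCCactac
Hist1h3c: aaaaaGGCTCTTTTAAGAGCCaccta
Hist3h2a: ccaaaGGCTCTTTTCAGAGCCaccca
Hist3h2ba: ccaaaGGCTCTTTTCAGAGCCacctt
The annotated transcript of Hist1h2ap ended 3 bases behind the stem-loop. Hist1h2ae ran on for 151 bases, Hist1h4i for 330 bases and Hist3h2a for 1643 bases. Hist1h2ae, Hist1h2ap, Hist3h2a and Hist3h2ba all carry the same 16 bases, those of the most frequent stem-loop.

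Promoters of 61 of the 67 genes were matched by symbol or gene ID in RefSeq (GRCm38.p6), as windows of 300 bases from 250 before to 50 after the start. The CCAAT motif, searched on both strands, was present in 52 of them (85.2%) and in 37.4% of all 32851 promoters of that table. It was found in every matched H1, H2A, H2B and H3 promoter, but in only 3 of 12 H4 promoters. TATAAA was present in 35 (57.4%) against 13.6% of all promoters. The octamer ATTTGCAT was present in 13 (21.3%), 7 of H2A and 6 of H2B genes, against 1.74% of all promoters. Such matches describe letters, not binding. Windows of neighbouring genes overlap in part, so the 61 are not independent. Promoters of 2 genes are shown because their captured levels ran in opposite directions over the cell cycle, as given below. Capitals mark the motifs on either strand.
Hist1h1b (chr13:21780576-21780875, minus strand): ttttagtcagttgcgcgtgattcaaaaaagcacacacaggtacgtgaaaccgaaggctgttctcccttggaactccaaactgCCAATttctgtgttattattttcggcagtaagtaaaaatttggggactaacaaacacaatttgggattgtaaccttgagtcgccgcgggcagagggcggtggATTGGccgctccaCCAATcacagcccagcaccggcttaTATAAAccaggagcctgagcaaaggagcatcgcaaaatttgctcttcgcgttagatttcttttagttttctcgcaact
Hist3h2a (chr11:58954435-58954734, plus strand): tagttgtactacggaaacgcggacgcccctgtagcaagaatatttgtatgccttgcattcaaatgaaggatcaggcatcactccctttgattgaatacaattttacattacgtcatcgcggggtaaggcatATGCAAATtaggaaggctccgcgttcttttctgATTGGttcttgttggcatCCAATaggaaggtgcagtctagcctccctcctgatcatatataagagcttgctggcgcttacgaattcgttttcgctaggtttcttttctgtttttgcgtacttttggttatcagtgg
Hist1h1b holds 3 copies of CCAAT and a TATAAA, and Hist3h2a holds 2 copies of CCAAT and an octamer but no TATAAA.

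Histone UMIs were captured in both libraries, and a few genes supplied most of them. The 67 genes together had 121863 UMIs in male and 96599 UMIs in female barcodes, which is 1102 CPM and 765 CPM. At least 100 UMIs over both libraries were reached by 56 genes, while Hist1h2bq and Hist1h4m had none and Hist1h2aa, Hist1h2ba and Hist2h2aa2 had 1 each. Hist1h2ba and Hist1h2aa are known as histone genes of the testis. The 12 most captured genes held 81.5% of all histone UMIs.

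Hist1h1b, a linker histone, came first with 185 CPM in male and 118 CPM in female barcodes. The H2A genes Hist1h2ae and Hist1h2ap followed in the male library with 184 and 151 CPM, while the female library had 104 CPM of Hist1h2ae and 51.5 CPM of Hist1h2ap. Hist1h4i, an H4 gene, was at 106 CPM in male and 112 CPM in female barcodes, the third most captured gene over both libraries. In the male library Hist1h1b, with 20490 UMIs, and Hist1h2ae, with 20352, differed by less than counting error. The order of the first 4 genes differed between the libraries, with Hist1h4i second in the female library and behind the other 3 in the male library. Hist3h2ba had 52.7 CPM in male and 42.9 CPM in female barcodes. The next 7 genes lay between 20.7 and 47.4 CPM in the male library and between 17.4 and 33.1 CPM in the female library. UMIs are counted at the 3' end and so are not divided by length, but this order is of captured RNA and not of all histone RNA. Family members are close copies of each other, and reads shared between copies may have been split or lost, which was not tested. Hist1h1e and Hist1h2be overlap on the same strand in the annotation, so their counts are uncertain.

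**Figure D1:**
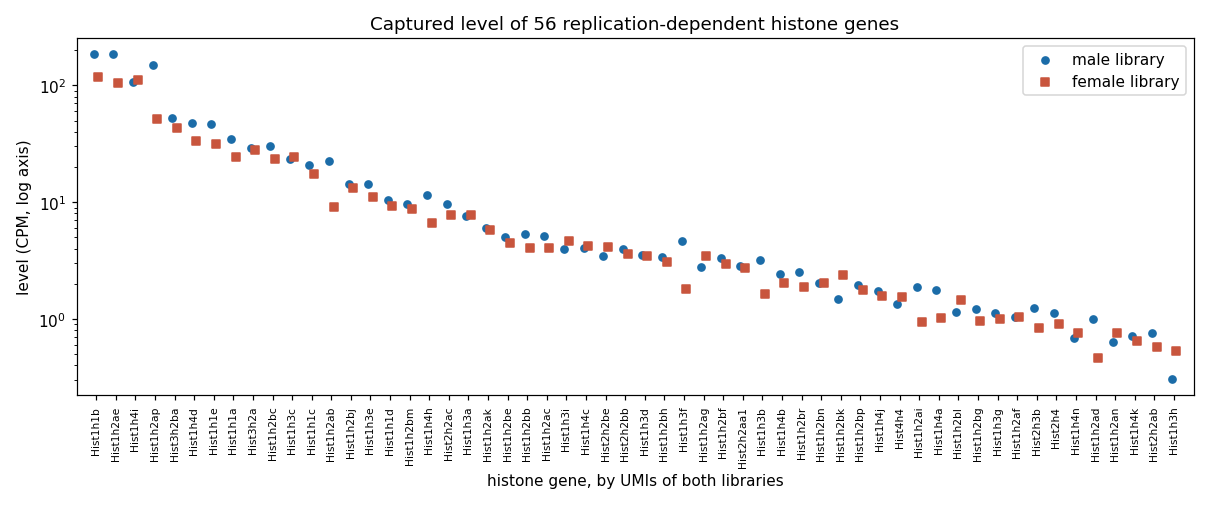
Level of each histone gene with at least 100 UMIs (CPM, log axis) in the male (circles) and female (squares) library, ordered by UMIs of both libraries. The level falls from 185 CPM for Hist1h1b in the male library to below 1 CPM for the last genes, and Hist1h2ap and Hist1h2ab show the male circle well above the female square.

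Some genes that share a divergent pair were captured very unequally. In 12 pairs an H2A and an H2B gene start on opposite strands 175 to 305 bases apart. Hist1h2ae had 33506 UMIs over both libraries and its partner Hist1h2bg, 175 bases away, had 256, a ratio of 131. Hist1h2ap had 23153 UMIs and Hist1h2br 515, a ratio of 44.96. The H2A gene was the higher one in 6 of the 12 pairs, and Hist1h2ba and Hist1h2aa were level at 1 UMI each. In the other pairs the H2B gene was higher, as for Hist1h2bc, with 6315 UMIs against 1080 of Hist1h2ac. The 2 genes of a pair differed by at least 10 times in 3 of the 12 pairs. Hist1h2ao with 16 UMIs and Hist1h2bq with 0 were not counted among the 3, since no ratio can be formed.

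Grouped by the annotated 3' end, 19 of the 56 genes end within 100 bases of the stem-loop and held 22.7% of histone UMIs. Another 20 run on further and held 51.7%, and 17 without a stem-loop in the annotation held 25.5%. The first group had a median log2 ratio of mitosis-marked over unmarked barcodes, explained next, of 1.67, the second of 1.31 and the third of 1.15. Their ranges overlapped, from 0.51 to 3.70 in the first, from -0.64 to 3.29 in the second and from 0.33 to 4.38 in the third.

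Next, histone level was set against cell-cycle genes of the same barcode. Rrm2 (a subunit of ribonucleotide reductase), Pcna (the sliding clamp of DNA polymerase) and Mcm5 (part of the replicative helicase) served as S phase trio, and 35 genes such as Ccnb1, Aurkb and Top2a as mitosis list. Each barcode was thinned to 2000 UMIs. It was called S-marked or mitosis-marked with at least 2 UMIs of one of them and under 2 of the other, both-marked with at least 2 of each, and unmarked with none of either. The rest, with 1 UMI of one or of each, were called low-marked. Several mitosis list genes, Top2a among them, are known to come on before mitosis, so a mitosis-marked barcode is not always one in mitosis.

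Histone UMIs lay mostly in barcodes that carried mitosis list genes. Mitosis-marked and both-marked barcodes held 67.5% and 19.98% of the histone UMIs of the male library, and 67.0% and 20.1% of those of the female library. They were 39.7% and 8.78% of male barcodes and 43.5% and 10.7% of female barcodes.

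In the male library, S-marked barcodes had 367 CPM of histone genes, both-marked 2202 CPM, mitosis-marked 1551 CPM, low-marked 355 CPM and unmarked 301 CPM. In the female library, S-marked barcodes had 308 CPM, both-marked 1271 CPM, mitosis-marked 974 CPM, low-marked 288 CPM and unmarked 263 CPM. The order of the 5 markings was the same in both libraries. Mitosis-marked over unmarked gave a log2 ratio of 2.36 (2.33 to 2.40) in male and 1.89 (1.85 to 1.93) in female barcodes. S-marked over unmarked gave only 0.28 (0.19 to 0.38) and 0.22 (0.13 to 0.32). Low-marked barcodes, 21.8% of male and 21.5% of female ones, gave nearly as much, 0.24 (0.19 to 0.28) and 0.13 (0.07 to 0.18), with intervals that overlap those of S-marked barcodes. With a marking at 1 UMI the S-marked ratios were 0.0088 in male and -0.040 in female barcodes, and at 3 UMIs 0.68 and 0.61, so their size and, in the female library, their direction changed with the marking. With the whole S phase list in place of the trio the mitosis-marked ratios were 1.48 in male and 1.25 in female barcodes. Unmarked and S-marked barcodes both lay below the level of the barcodes with 1 to 100 UMIs, which hold mainly free RNA, at 942 CPM in male and 654 CPM in female barcodes. Median UMIs per barcode were 5097 in male S-marked, 6458 in male mitosis-marked and 4414 in male unmarked barcodes, and the part of this difference in the histone level was not tested.

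S-marked barcodes were few, 506 male (2.93%) and 678 female (3.62%), and by construction carried at most 1 mitosis list UMI per 2000. Within barcodes without any mitosis list UMI, the trio made little difference. Male barcodes with 1, 2 and 3 trio UMIs had 288, 342 and 410 CPM of histone genes, with 998, 211 and 54 barcodes, against 301 CPM in those with none. Female barcodes with 1, 2 and 3 trio UMIs had 251, 271 and 258 CPM, with 1038, 243 and 71 barcodes, against 263 CPM in those with none. Mitosis list UMIs moved with histone level in steps when no trio UMI was present. With 1, 2, 3 and 4 mitosis list UMIs the male library had 385, 511, 776 and 973 CPM, and the female library 300, 372, 546 and 710 CPM. With 5 or more it had 1624 CPM in male and 1040 CPM in female barcodes.

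Over single barcodes thinned to 2000 UMIs, Spearman's rho of histone UMIs with mitosis list UMIs was 0.48 in the male (17254 barcodes) and 0.44 in the female library (18711 barcodes). With trio UMIs it was 0.19 in male and 0.15 in female barcodes, and with UMIs of a list of 37 S phase genes 0.25 and 0.23. Such values are descriptions, because barcodes of a library share its embryos and its free RNA. At 2000 UMIs, 60.3% (59.5 to 61.0) of male and 56.9% (56.2 to 57.6) of female barcodes had at least 1 histone UMI, against 82.4% and 80.0% without thinning. Among unmarked barcodes the share was still 43.2% for male and 38.9% for female ones. How much of this is free RNA was not tested. Hist3h2a and Hist3h2ba, described below, made up 37.0% of the histone UMIs of male and 36.7% of those of female unmarked barcodes. At least 5 histone UMIs per 2000 were found in 12.6% of male and 7.44% of female barcodes. Of these, 98.5% in male and 98.6% in female barcodes were mitosis-marked or both-marked. At least 20 histone UMIs per 2000 were found in 58 male barcodes and in 0 of 18711 female barcodes, which allows a share of up to 0.0160%.

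Because the mitosis list was broad, barcodes were also sorted by the whole S phase list and by 14 late mitosis genes such as Ccnb1, Cdc20 and Plk1. This sorting was chosen after the values above had been seen. It separated 4 states: many S phase UMIs (9 or more per 2000) with no late mitosis UMI, many S phase UMIs with 2 or more late ones, 4 or more late UMIs with 5 or fewer S phase UMIs, and neither (2 or fewer S phase UMIs and no late one).

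Sorted this way, histone level was above the neither state with S phase genes alone and was highest with both. In the male library the S state (1705 barcodes) had 1095 CPM, the S and late state (1008 barcodes) 3004 CPM, the late state (2442 barcodes) 1221 CPM and the neither state (3933 barcodes) 354 CPM. In the female library the S state (1924 barcodes) had 760 CPM, the S and late state (1332 barcodes) 1559 CPM, the late state (2831 barcodes) 820 CPM and the neither state (3331 barcodes) 293 CPM. S over neither gave a log2 ratio of 1.63 (1.59 to 1.67) in male and 1.37 (1.32 to 1.42) in female barcodes. S and late over neither gave 3.08 (3.05 to 3.12) and 2.41 (2.36 to 2.46). When the trio marking was repeated with the 14 late genes in place of the mitosis list, S-marked over unmarked gave 1.70 in male and 1.25 in female barcodes, against 0.28 and 0.22 with the whole list.

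**Figure D2:**
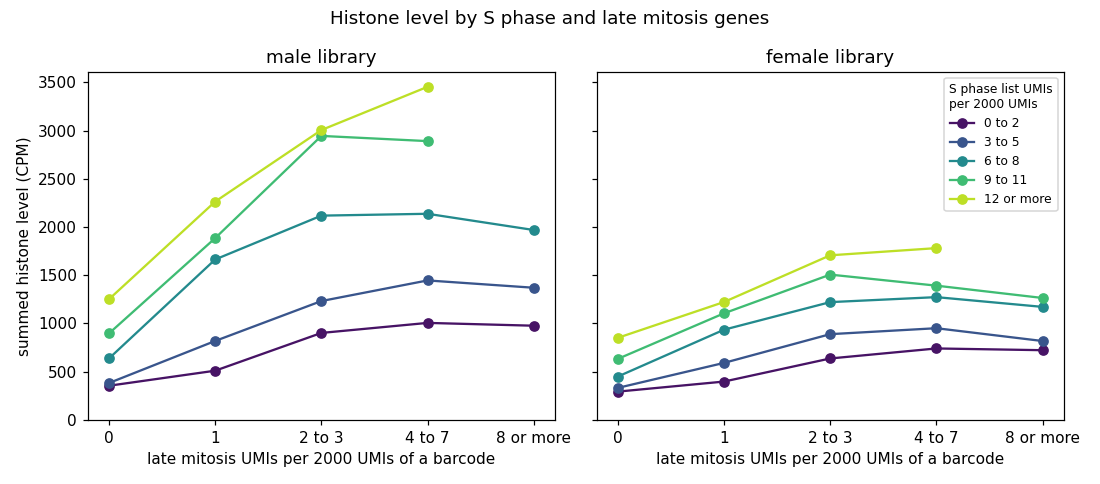
Summed histone level (CPM) against late mitosis UMIs per 2000 UMIs of a barcode in the male (left) and female (right) library, with a line for each range of S phase list UMIs and points of at least 50 barcodes. In both panels the lines lie above each other in the order of the S phase list, from 354 CPM to 1251 CPM in male and from 293 CPM to 851 CPM in female barcodes at no late mitosis UMI.

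Gene by gene, the cell cycle link was shared by most but not all histone genes. Of the 56 genes, 37 were at least 2-fold higher in mitosis-marked than in unmarked barcodes of both libraries summed (log2 of CPM plus 1), where 2.61% of all 13933 genes with at least 100 UMIs were. Their median log2 ratio was 1.30, against -0.04 over all genes. In S-marked over unmarked barcodes 3 of the 56 were at least 2-fold higher, where 1.69% of all genes were: the linker histones Hist1h1b, Hist1h1a and Hist1h1d, with log2 ratios of 1.45, 1.20 and 1.07. With 0.1 CPM added in place of 1, 14 of the 56 were at least 2-fold higher in S-marked barcodes, where 2.55% of all genes were. With a limit of 5000 UMIs per barcode 6 of 55 were, where 1.84% of all genes were. None of the 56 was among the 50 genes with the highest S-marked over unmarked ratio, the trio left out. A set of 50 out of 13933 genes is so small that this says little about the 56.

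Hist1h1b had 29.3 CPM in S-marked, 445 CPM in both-marked, 280 CPM in mitosis-marked and 10.3 CPM in unmarked barcodes of the male library. In the female library it had 25.7, 239, 162 and 8.2 CPM in the same markings. Its mitosis-marked over unmarked ratio of 4.38 on the log2 scale was the highest of the 56 genes. Hist1h2ap, with 3.70, and Hist1h2ae, with 3.29, were also high.

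The chromosome 11 pair ran the other way. Hist3h2ba, an H2B gene, had 40.3 CPM in S-marked, 29.3 CPM in both-marked, 45.2 CPM in mitosis-marked and 73.2 CPM in unmarked barcodes of the male library, and 35.4, 25.4, 40.2 and 59.1 CPM in those of the female library. Hist3h2a, an H2A gene, had 18.3, 11.6, 27.9 and 38.4 CPM in the male library in that order of markings, and 14.6, 18.1, 27.4 and 37.6 CPM in the female library. Both were thus highest in unmarked barcodes of both libraries and also in the neither state, with 81.4 CPM of Hist3h2ba in male and 65.1 CPM in female barcodes. Their log2 ratios of mitosis-marked over unmarked barcodes were -0.64 for Hist3h2ba and -0.45 for Hist3h2a. Without an added count they were -0.65 and -0.46. With 5000 UMIs per barcode the size shrank to -0.57 for Hist3h2ba and -0.18 for Hist3h2a. With at most 5% mitochondrial UMIs, which kept only 1225 male and 1111 female barcodes, it shrank to -0.32 and -0.028. Over the 4 alternatives tried, Hist3h2ba ran from -0.72 to -0.32 and Hist3h2a from -0.54 to -0.028, so the size also grew in places.

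Hist1h2bc, an H2B gene, took another course. It had 8.7 CPM in the S state, 8.5 CPM in the S and late state, 42.9 CPM in the late state and 35.03 CPM in the neither state of the male library. In the female library it had 7.7, 10.1, 33.8 and 21.7 CPM. It was the one gene that was highest in the late state in both libraries. Of the 56 genes, 48 were highest in the S and late state in both libraries, where 10.7% of all 13933 genes were. No margin was required, so for genes with few UMIs the states can lie within counting error. Hist1h4j, 1 of the 48, had 2.16, 2.19, 1.18 and 2.14 CPM in the female library, in the order of states above. The late state was the highest in both libraries for 1 of the 56 and for 14.9% of all genes, and the neither state for the chromosome 11 pair and for 28.7% of all genes. The other 5 genes had a different highest state in each library.

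**Figure D3:**
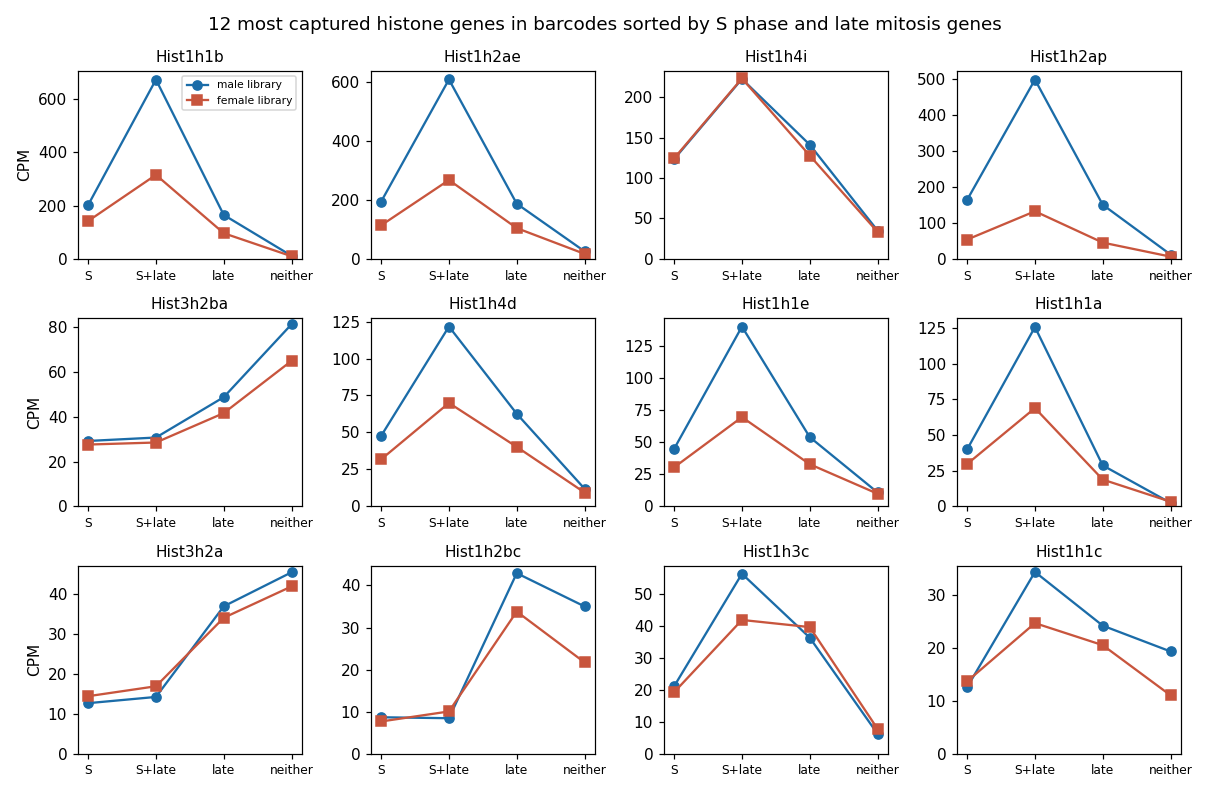
Level (CPM, axis from 0 in each panel) of the 12 most captured histone genes in the S, S and late, late and neither states of the male (circles) and female (squares) library. In both libraries 9 of the genes peak in the S and late state, while Hist3h2ba and Hist3h2a are highest in neither and Hist1h2bc is highest in the late state.

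Summed by family, H1 genes showed the steepest mitosis-marked over unmarked ratio, with log2 3.61 (3.51 to 3.71) in male and 3.14 (3.02 to 3.26) in female barcodes. H2A genes followed with 2.85 and 2.03, H3 genes with 2.22 and 1.76, and H4 genes with 2.19 and 2.00, above H3 genes in the female library. H2B genes, which include Hist3h2ba and Hist1h2bc, were at 0.66 (0.60 to 0.72) in male and 0.65 (0.58 to 0.73) in female barcodes. A sum follows its most captured genes: the median over the 16 measured H2B genes was 1.41, and 15 of them were above 0. The other medians were 2.32 for H1, 1.35 for H2A, 1.20 for H3 and 0.69 for H4 genes. By these medians, on log2 of CPM plus 1 and both libraries summed, H2B genes came after H1 genes and H4 genes were lowest. The order of families thus differed between sums and medians. Over all 13933 genes the median of the mitosis-marked over unmarked ratio was -0.04. In S-marked over unmarked barcodes the summed H2B level gave -0.40 (-0.60 to -0.21) in male and -0.37 (-0.56 to -0.18) in female barcodes. Hist3h2ba (-0.82) and Hist1h2bc (-0.81) were the lowest H2B genes there, while 11 of the 16 were above 0 and the median was 0.24. Over all 13933 genes the median of the S-marked over unmarked ratio was -0.05.

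Other genes of histone supply were read from lists. Of 11 replacement histones with polyadenylated mRNA, made outside S phase as well, 4 were at least 2-fold higher in mitosis-marked than in unmarked barcodes and 0 in S-marked ones. Cenpa, 1 of these 4, also stands on the mitosis list. H3f3a, which encodes the replacement histone H3.3, had 4429 CPM in male and 4237 CPM in female barcodes, and its mitosis-marked over unmarked log2 ratio was 0.01. H2afz, which encodes H2A.Z, had 2396 and 2377 CPM in the male and female libraries and a ratio of 1.34. Of 19 factors that process histone mRNA or carry histones, 2 were at least 2-fold higher in mitosis-marked and 4 in S-marked barcodes than in unmarked ones. Chaf1a and Chaf1b of this list also stand on the S phase list. Slbp, the stem-loop binding protein, had a log2 ratio of 0.99 in S-marked and 0.54 in mitosis-marked over unmarked barcodes. The histone chaperone Nasp had 1.01 and 0.69 in those comparisons. Of the 37 S phase genes, which include the trio used for the marking, 36 were at least 2-fold higher in S-marked barcodes.

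Between the libraries, histone level was higher in the male one. The male over female ratio of all histone genes was 0.53 (0.51 to 0.54) on the log2 scale, or 1.44-fold. In mesenchyme-like barcodes alone it was 0.54 (0.53 to 0.56), with 1138 CPM in male and 781 CPM in female barcodes. Barcodes with 1 to 100 UMIs showed the same ratio, 0.53 (0.43 to 0.62). A difference between single libraries cannot be told apart from one between the sexes.

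The ratio was not alike over the markings. It was 0.25 (0.13 to 0.38) in S-marked, 0.79 (0.77 to 0.82) in both-marked, 0.67 (0.66 to 0.69) in mitosis-marked and 0.19 (0.14 to 0.25) in unmarked barcodes. In the S state, which is not limited by the broad mitosis list, male barcodes had 1095 CPM and female ones 760 CPM. The late state had 1221 and 820 CPM, the S and late state 3004 and 1559 CPM, and the neither state 354 and 293 CPM. The low S-marked ratio thus does not stand for all S phase barcodes. The cell-cycle genes themselves leaned slightly to the female library: the median log2 male over female was -0.12 over the 37 S phase genes and -0.16 over the 35 mitosis genes. None of either list passed 0.5 in either direction. Of all 13933 genes 2.22% had at least 0.5 and 0.366% had -0.5 or less, so lists of this size would hold few. The marked shares were also lower in the male library, with 48.5% of male and 54.3% of female barcodes mitosis-marked or both-marked.

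Single histone genes differed widely in this ratio. Of the 56 genes, 10 had a log2 male over female (of CPM plus 1) of at least 0.5, where 2.22% of all 13933 genes had, and 0 had -0.5 or less, where 0.366% of all genes had. Above 0 were 42 of the 56. Their median was 0.13, against -0.01 over all 13933 genes, most of which were thus below 0. Hist1h2ap showed the highest ratio of the 56, with 151 CPM in male and 51.5 CPM in female barcodes, a log2 ratio of 1.55 (1.51 to 1.59). It and Hist1h2ab, with 22.5 CPM in male and 9.08 CPM in female barcodes, were among the 20 genes of the whole table with the highest male over female value.

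Hist1h2ae stood at 0.82 (0.79 to 0.85), Hist1h1b at 0.65 (0.61 to 0.68) and Hist1h1e at 0.58 (0.52 to 0.64). Hist1h4i went slightly the other way at -0.07 (-0.11 to -0.04), and Hist3h2a was at 0.06 (-0.01 to 0.13), an interval that holds 0, and at -0.013 with a limit of 5000 UMIs per barcode. Lowest of the 56 without an added count was Hist1h3h, at -0.79 (-1.43 to -0.17), with 0.308 CPM in male and 0.531 CPM in female barcodes. With 1 CPM added it stood at -0.23, and the lowest of the 56 on that scale was Hist1h2bk at -0.43.

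Summed by family, the log2 male over female ratio was 0.92 (0.90 to 0.95) for H2A, 0.57 (0.55 to 0.59) for H1, 0.23 (0.20 to 0.26) for H2B, 0.15 (0.10 to 0.19) for H3 and 0.13 (0.10 to 0.15) for H4 genes. Hist1h2ap (1.53), Hist1h2ab (1.22) and Hist1h2ae (0.82) were the highest H2A genes on log2 of CPM plus 1, while the median over the 14 measured H2A genes was 0.22, 3 of them were below 0, and Hist1h2ag was lowest at -0.24. The median over the 5 measured H1 genes was 0.49, and all 5 were above 0, where the median over all genes was -0.01. H2A and H2B partners of one divergent pair could differ: Hist1h2ap was at 1.55 and Hist1h2br at 0.42, and on chromosome 3 Hist2h2ac was at 0.32 and Hist2h2be at -0.25.

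Other RNAs that differ between the libraries are given beside this result. Gm42418, a locus that overlaps ribosomal RNA sequence, had 2816 CPM in male and 1413 CPM in female barcodes, and 21057 and 8021 CPM in the barcodes with 1 to 100 UMIs. AY036118 had 317 CPM in male and 107 CPM in female barcodes. Rps6, which encodes a ribosomal protein, had 2773 CPM in male and 1715 CPM in female barcodes. Replacement histones had a median log2 male over female of -0.06 and none of the 11 passed 0.5, where 2.22% of all 13933 genes did. A list of 11 is too short for that count to say much. The part of such library-wide differences in the histone result was not tested.

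**Figure D4:**
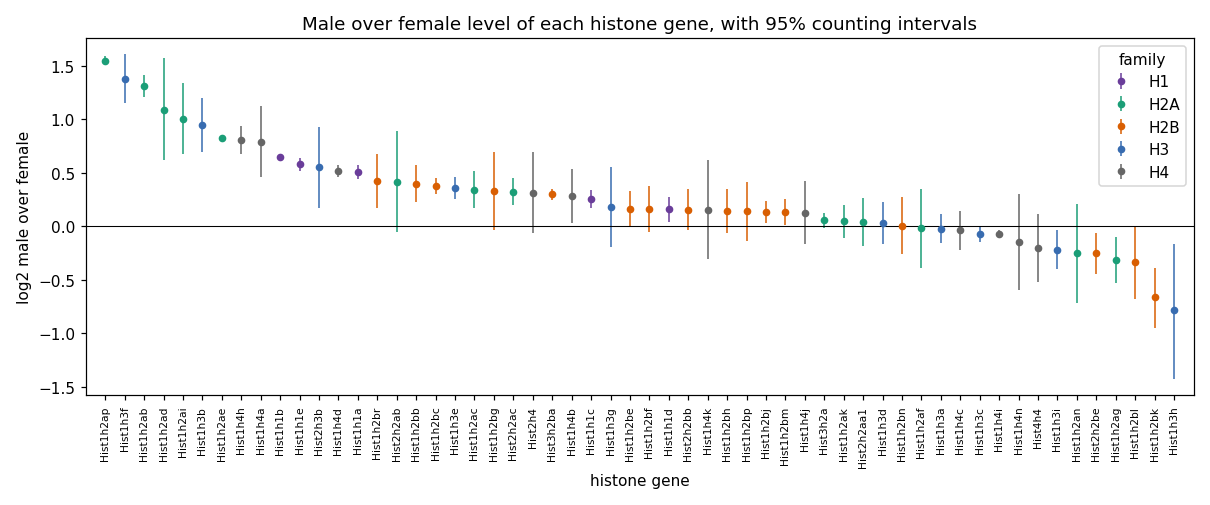
Log2 male over female level of each of the 56 histone genes with its exact 95% counting interval, ordered from high to low and coloured by family. Hist1h2ap is highest at 1.55 and H2A genes take several of the first places, while Hist1h3h is lowest at -0.79 with a wide interval.

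Across cell classes, histone level varied less between mesenchyme-like clusters than between classes. Barcodes were clustered without the histone and cell-cycle genes, and clusters were named by marker genes. Mesenchyme-like was the name for clusters with mesenchyme markers that passed for no other class. Mesenchyme-like barcodes fell into 15 clusters, whose histone level ran from 873 CPM (cluster 10, led by Vax2os, Sim1 and Tbx15) to 1337 CPM (cluster 4, led by Dlx6os1, Prss35 and Gm34030) in the male library. In the female library it ran from 603 CPM (cluster 13, led by Gatm, Gria2 and Pou3f3) to 947 CPM (cluster 4). The male library was higher in each of the 15, with a log2 male over female of 0.38 to 0.80. Spearman's rho of the clusters' levels between the male and female library was 0.88 over 15 clusters, which share their library's free RNA. Histone level and the share of barcodes that were mitosis-marked or both-marked had a rho of 0.38 in male and 0.44 in female barcodes over those 15 clusters.

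Immune-like barcodes had 1246 CPM in 98 male and 986 CPM in 62 female barcodes, the highest level of a class while globin is kept in the totals. They hold a cluster led by C1qb, C1qc and Ccl4 with 1082 CPM in 73 male and 861 CPM in 51 female barcodes, and one led by Cma1, Cpa3 and Srgn with 1518 CPM in 25 male and 1306 CPM in 11 female barcodes. The larger of these clusters lay below mesenchyme-like barcodes (1138 CPM) in the male library and above them (781 CPM) in the female library. Epithelium-like barcodes had 1075 CPM in 212 male and 799 CPM in 144 female barcodes. Endothelium-like barcodes were low, with 569 CPM in 201 male and 438 CPM in 133 female barcodes, although 59.7% of the male and 61.7% of the female ones were mitosis-marked or both-marked. Glia-like barcodes had 804 CPM (59 male) and 471 CPM (78 female), and skeletal muscle-like barcodes 819 CPM (35 male) and 476 CPM (62 female). Smooth muscle-like barcodes were nearly all from the male library, 233 against 9. They had 561 CPM in male and 393 CPM in female ones, the latter from only 29 histone UMIs. All 8 mesenchyme markers had UMIs in every class, in sum 366 CPM in male and 786 CPM in female endothelium-like barcodes, 859 and 1041 CPM in immune-like ones, and 3548 and 3696 CPM in mesenchyme-like ones. Smooth muscle-like barcodes stood above mesenchyme-like ones in the male library, at 6007 CPM, and below them in the female library, at 2781 CPM. The part of free mesenchyme RNA in the levels of the other classes was not tested.

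Erythroid-like barcodes, which carry globin mRNA, differed most between the libraries. They had 1037 CPM in 151 male and 472 CPM in 265 female barcodes, a log2 ratio of 1.14 (1.02 to 1.25). With globin UMIs left out of the total they had 1839 CPM in male and 826 CPM in female barcodes, and immune-like barcodes 1248 and 998 CPM. Mesenchyme markers then stood at 2922 CPM in male and 3257 CPM in female erythroid-like barcodes, close to mesenchyme-like barcodes. Hist1h2bc was at 133 CPM in male and 50.8 CPM in female erythroid-like barcodes, against 26.8 and 22.5 CPM in mesenchyme-like ones of the male and female library. Hist1h1c was at 111 CPM in male and 18.7 CPM in female erythroid-like barcodes, against 19.0 and 17.2 CPM in mesenchyme-like ones. Neither gene was high in erythroid-like barcodes alone. Immune-like barcodes had 63.8 (male) and 68.8 CPM (female) of Hist1h2bc, and 64.6 (male) and 72.9 CPM (female) of Hist1h1c. Endothelium-like barcodes had 64.6 (male) and 33.5 CPM (female) of Hist1h2bc. With globin kept in the totals, female immune-like barcodes thus exceeded female erythroid-like ones for both genes, while male ones did not. A single male erythroid-like barcode of 3674 UMIs held 165 histone UMIs (4.49%), 72 of Hist1h2bc and 43 of Hist1h1c. It had 87 histone UMIs per 2000, and the next highest barcode of both libraries had 60. Without that barcode, male erythroid-like barcodes had 913 CPM of histone genes and 78.4 CPM each of Hist1h2bc and Hist1h1c.

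Hist3h2ba also differed by class. It had 79.7 CPM in male and 69.1 CPM in female epithelium-like barcodes and 54.6 and 44.1 CPM in mesenchyme-like ones, but 9.5 and 12.9 CPM in endothelium-like and 8.9 and 5.5 CPM in immune-like ones of the male and female library. Hist3h2a, its neighbour on chromosome 11, had 28.6 CPM in male and 18.3 CPM in female epithelium-like barcodes, 17.3 and 20.6 CPM in endothelium-like ones and 24.8 and 23.4 CPM in immune-like ones. The gap between classes was thus wider for Hist3h2ba than for Hist3h2a in both libraries.

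**Figure D5:**
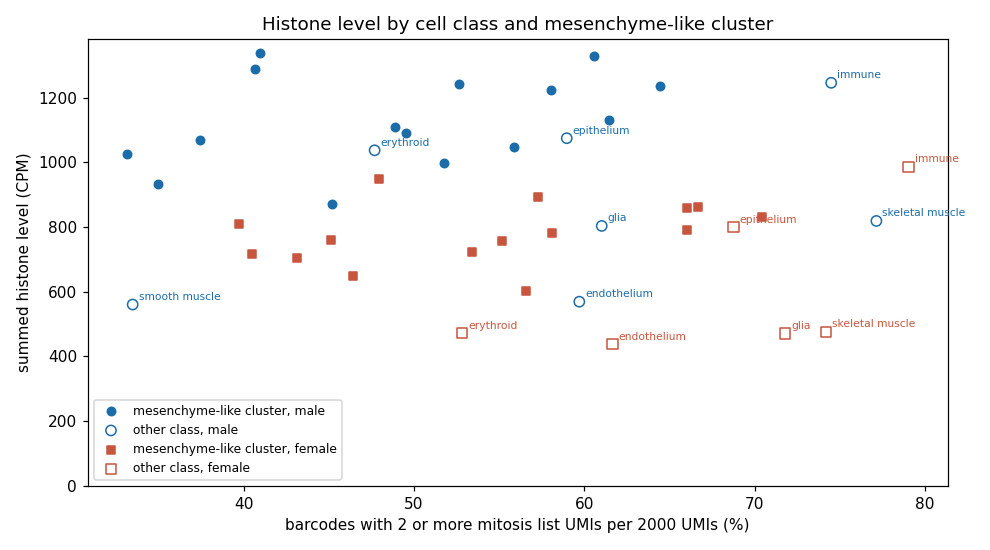
Summed histone level (CPM) against the percent of barcodes with at least 2 mitosis list UMIs per 2000 UMIs, for 15 mesenchyme-like clusters (filled) and other classes of at least 30 barcodes (open) in the male (circles) and female (squares) library. Endothelium-like barcodes lie at 569 CPM (male) and 438 CPM (female), below the mesenchyme-like clusters of the same library.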

How the data were processed

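The deposited files hold raw UMI counts with no normalization by the authors, made with Cell Ranger 3.1 on mm10, per the submitters' processing notes; the annotation version is not given in the sources used here. Each library lists all 6794880 barcodes of the kit with 130105692 male and 144515562 female UMIs, so cells had not been called. Per the labels' protocols, tissue waited 2 hours for genotyping and was digested at 37 °C for 30 minutes with collagenase XI.

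Of 18549 male and 20070 female barcodes with 2000 or more UMIs, 373 and 470 had under 500 genes and 922 and 889 more had over 10% mitochondrial UMIs. Levels are sums of counts over barcodes. Marking used barcodes thinned to 2000 UMIs (seed 0). With 1 library per sex no test was run: ratios carry exact conditional Poisson intervals and shares exact Clopper-Pearson intervals, both at 95% and for counting error only. The ratio and interval steps were tried on simulated counts of 13933 genes, 200 of them changed in the male over female comparison. All 200 were recovered by the size of their ratio (100%), a count that does not use the interval. The intervals held the true value in 95% of cases. As they cover counting error only, this trial cannot show how far they hold for differences between real libraries.

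Barcodes were clustered in scanpy 1.11.5 on 1811 of 2000 variable genes (120 left out for a correlation over 0.1 with cell-cycle or histone scores, 69 by name), with 30 components, 15 neighbours and Leiden resolution 1, into 23 clusters. A class name other than mesenchyme-like needed a mean log2 marker excess of 2 and 3 markers at 50 CPM. Clusters without such a name were called mesenchyme-like with 3 mesenchyme markers at 50 CPM and no excess required. Their mean log2 excess of mesenchyme markers over all other barcodes ran from -0.86 (cluster 5) to 0.33 (cluster 1). Scrublet marked 0% of barcodes and so had not worked; doublets were kept, and removal of the highest scores at 0.8% per 1000 barcodes (2382 male, 2801 female) was an alternative. Stem-loops were read from GENCODE M21 transcripts and promoters from RefSeq.

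The members and gene lists were chosen with earlier results of these data known. Named are the 12 genes with the most UMIs and the highest and lowest by ratio; other genes were picked with their values in view, as were the late mitosis list, the 4 states, divergent pairs and class examples. Alternatives changed the UMI and mitochondrial limits, doublets, the marking, the scale, the pseudocount of 1 CPM and the minimum of 100 UMIs per gene.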

Additional observations from a re-analysis of the deposited data

Results flagged for a closer look

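H2A genes as a group moved in opposite directions in S-marked over unmarked barcodes, with a log2 ratio of 0.13 (-0.06 to 0.31) in male and -0.11 (-0.32 to 0.08) in female barcodes; the difference was not tested, and both counting intervals hold 0. Hist1h1c, a linker histone, likewise stood at 0.20 (-0.38 to 0.74) in male and -0.50 (-1.23 to 0.16) in female barcodes, which was not tested either, and both intervals hold 0. In the S state over the neither state the signs were the other way round, with -0.62 (-0.91 to -0.34) in male and 0.31 (-0.00050 to 0.62) in female barcodes.

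Barcodes left out by the limits also held histone UMIs. Those with 2000 or more UMIs but under 500 genes had 166 CPM in male and 117 CPM in female barcodes, where globin took 84.1% and 85.6% of their UMIs. Those with over 10% mitochondrial UMIs had 819 CPM in male and 627 CPM in female barcodes, in the order of the kept barcodes at 1102 CPM and 765 CPM.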

How the results depend on the processing

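No paired analysis was possible because each sex has 1 library. All values here are log2 ratios unless a share or a count is named, and "moved" means outside the counting interval. The mitochondrial limit of 5% kept only 1225 of 17254 male and 1111 of 18711 female barcodes. Of these, 75.9% of male and 70.7% of female ones were mesenchyme-like, against 94.3% and 96.0% in the main setting. The male over female ratio of all histone genes, 0.53, and of mesenchyme-like barcodes, 0.54, moved to 0.59 and 0.63 with a limit of 5000 UMIs, 0.71 and 0.61 with a mitochondrial limit of 5%, 0.50 and 0.52 without Hist1h1b, 0.51 and 0.51 as the mean of each barcode's CPM, 0.51 and 0.51 after thinning, 0.56 and 0.57 without Gm42418, AY036118, mitochondrial and ribosomal protein genes in the scale, and 0.64 and 0.66 with markings weighted alike. Mesenchyme-like values with a limit of 1000 UMIs could not be given, since shallower barcodes were not clustered. S-marked over unmarked, 0.28 in male and 0.22 in female barcodes, changed with the marking: 0.0088 and -0.040 at 1 UMI, a change of sign in the female library, 0.68 and 0.61 at 3 UMIs, 0.13 and 0.082 with the whole S phase list, and 1.70 and 1.25 with the late mitosis list, an alternative chosen after seeing the data. It was 0.43 and 0.41 with 5000 UMIs, 0.18 and 0.12 as the mean of barcodes, and 1.77 in the female library with 5% mitochondrial UMIs, where 18 S-marked and 166 unmarked barcodes were left. Mitosis-marked over unmarked, 2.36 and 1.89, stayed above 0 in each of these alternatives: 2.46 and 2.02 with 5000 UMIs, 2.43 and 2.22 with 5% mitochondrial UMIs, 2.45 and 1.95 without the highest Scrublet scores, 2.13 and 1.67 without Hist1h1b, 1.94 and 1.59 at 1 UMI, 2.56 and 2.03 at 3 UMIs, 1.48 and 1.25 with the whole S phase list, 1.82 and 1.45 with the late mitosis list, and 2.43 in male mesenchyme-like barcodes. The share of barcodes with a histone UMI, 60.3% and 56.9%, was 67.2% and 65.0% with 5000 UMIs, 66.5% and 60.1% with 5% mitochondrial UMIs, 82.4% and 80.0% without thinning, 59.0% and 55.4% without Hist1h1b, and 58.9% and 55.4% without the highest Scrublet scores. Genes at least 2-fold higher in S-marked barcodes were 6 with 5000 UMIs and 14 with a pseudocount of 0.1 CPM, against 3. Genes that reached the minimum were 37 at 500 UMIs, against 56 at 100. Hist3h2a mitosis-marked over unmarked, -0.46, was -0.028 with 5% mitochondrial UMIs and -0.18 with 5000 UMIs, and Hist3h2ba, -0.65, was -0.32 and -0.57. At the other end of the 4 alternatives Hist3h2a stood at -0.54 and Hist3h2ba at -0.72. Hist3h2a male over female changed sign to -0.013 with 5000 UMIs. Leaving out the 82 shared barcodes moved none of the 8 values it was tried on. The cause of these changes was not tested.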
